A study of Saccharomyces cerevisiae with 4 samples.

Results

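The genes of serine, glycine and folate one-carbon metabolism were compared between the Saccharomyces cerevisiae strain D10 Small and WT San I. The set holds 10 of the 6256 genes on the array and was taken by systematic name, with earlier results of these data known. It consists of 4 genes of serine synthesis (SER3, SER33, SER1 and SER2), the serine breakdown gene CHA1, the glycine cleavage genes GCV1 and GCV2, and the folate genes SHM1, SHM2 and MTD1. D10 Small is a translocant strain derived from the parental strain WT San I, and the labels do not say what was translocated or how the strain was selected. Its 4 biological replicates grew in the glucose-rich medium YPD with 200 mkg/ml kanamycin, an aminoglycoside, to an optical density of about 0.4 to 0.5. WT San I was grown to the same density in the same medium, no kanamycin is named for it, and it was used as 1 pool whose make-up is not stated. Each of 4 two-colour arrays carried 1 replicate of D10 Small in Cy3 against the pool in Cy5, so the effects of strain, kanamycin and dye cannot be told apart, and the pool's own spread enters no test.

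Yeast makes serine from the glycolytic intermediate 3-phosphoglycerate in 3 steps: oxidation by Ser3 or Ser33, transamination by Ser1 and dephosphorylation by Ser2. Serine hydroxymethyltransferase, Shm1 in mitochondria and Shm2 in the cytosol, converts serine and glycine into each other and loads a one-carbon unit on tetrahydrofolate. The mitochondrial glycine cleavage complex also releases such a unit from glycine, and Mtd1 oxidises the loaded folate in the cytosol. When serine is plentiful, the activator Cha4 switches on CHA1, whose product breaks serine and threonine down, and also switches on a non-coding transcript that runs through the SER3 promoter and keeps SER3 low.

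D10 Small was above background for 91.8% to 93.2% of all probes and the pool for 86.0% to 89.1%, and each of the 10 genes was above background in both channels on all 4 arrays. Ratios below are log2 of D10 Small over the pool, given per array and as mean ± SD. As a description of the strains, 10 of 10 haploid-specific genes were higher in D10 Small, 4 of them with no pool signal above background. Of 23 genes of the mitochondrial genome on the array, 10 were tested and 9 were lower, all 9 with no D10 Small signal above background. Genes with signal in 1 channel alone entered the test through that channel, so their direction was largely fixed in advance. The part of these strain differences in the results below was not tested.

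SER3, GCV1, MTD1, SHM2, GCV2 and SER33 were higher in D10 Small than in the WT San I pool, and CHA1, SER2 and SHM1 were lower, while the sign of SER1 depended on the dye normalisation. At the reported setting the extremes were SER3, 8.72-fold higher, and CHA1, 30.2-fold lower, though the size for CHA1 varied with the processing. By limma over all genes tested, all 10 passed at an adjusted p under 0.05, with 7 higher and 3 lower. This count says little by itself, because 82.7% of the 5794 genes tested passed, 43.2% as higher and 39.6% as lower. The sizes stood further out: SER3, GCV1, MTD1 and CHA1 were at least 2-fold apart, 4 of 10 genes against 9.25% of all genes tested. In a limma test against a minimum fold of 1.2 in place of no difference, 7 of the 10 passed, against 44.5% of all genes. The median absolute ratio was 0.86 for the 10 genes and 0.31 for all genes tested, while the median signed ratios were 0.34 and 0.02. The genes were chosen with earlier results of these data known, so these comparisons of size describe the set and do not test it.

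**Figure D1:**
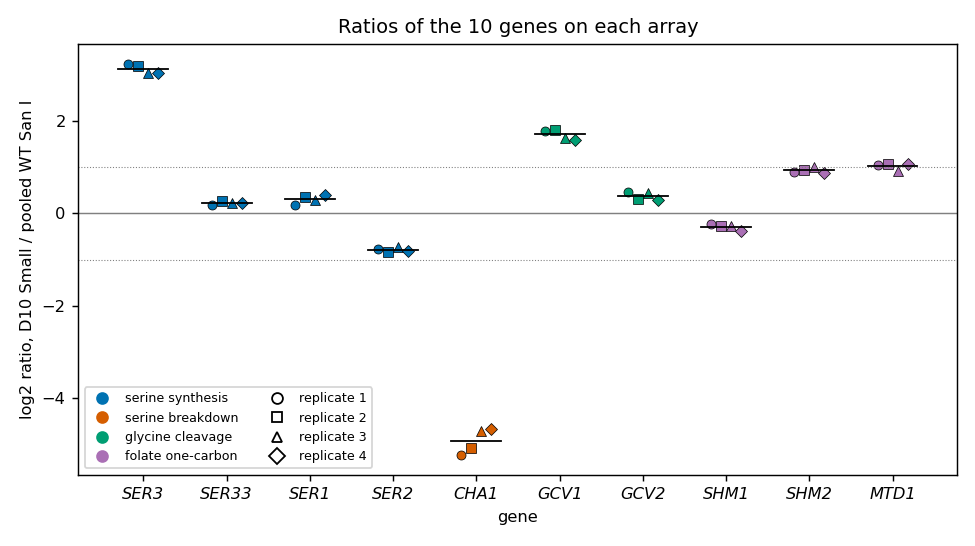
Log2 ratio of D10 Small over the WT San I pool (vertical axis) for each of the 10 genes (horizontal axis), with 1 point per array, a bar at the mean of the 4 arrays and dotted lines at 2-fold. The 4 arrays of each gene lie on 1 side of 0, with SER3 from 3.03 to 3.23 and CHA1 from -5.23 to -4.67.

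Of the genes for serine synthesis, SER3 alone reached 2-fold. SER3 (YER081W) encodes a phosphoglycerate dehydrogenase, the first enzyme of the route. Its net spot intensity was 4067, 3636, 3255 and 2806 in D10 Small, against 271, 167, 146 and 129 in the pool. The lowest D10 Small signal was thus far above the highest pool signal, although the channels differ in scale, with the median gene at 284 to 432 in D10 Small and at 105 to 246 in the pool. After dye normalisation the ratios were 3.23, 3.19, 3.04 and 3.03, a mean of 3.12 ± 0.10 (SD, n = 4) with a limma adjusted p of 3.60e-09. Only 9 of the 5794 genes tested had a higher ratio. The median ratio of its 20 nearest tested genes on V right was -0.03, and none of them exceeded 0.60.

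SER33 (YIL074C) encodes the paralogous dehydrogenase for the same step. Its ratios of 0.17, 0.27, 0.22 and 0.23 averaged 0.22 ± 0.04 (SD, n = 4), a 1.17-fold difference with a limma adjusted p of 0.000245. This small value ran from 0.12 relative to its neighbours and 0.14 relative to its arm to 0.39 with median centring. SER3 exceeded SER33 by 3.06, 2.92, 2.82 and 2.80 on the 4 arrays, with a mean difference of 2.90 ± 0.12 on the log2 scale. The direction was the same on 4 of 4 arrays, and the two-sided exact sign-flip permutation test gave p = 0.125, the smallest that 4 arrays allow, which stayed 0.125 after adjustment over the 3 pairs compared. The 2 genes are close relatives, and whether their probes share signal was not tested.

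The later steps of the route did not follow SER3. SER1 (YOR184W), the phosphoserine aminotransferase, was bright in both channels, with net intensities of 4517, 4306, 4274 and 3527 in D10 Small and of 4752, 2815, 2577 and 2032 in the pool. These ranges overlap, and the ratios of 0.19, 0.35, 0.29 and 0.39 averaged 0.30 ± 0.09 (SD, n = 4), with a limma adjusted p of 0.000171. The sign of SER1 depended on the dye normalisation, since median centring in place of loess gave -0.18 ± 0.22 with a limma adjusted p of 0.0719. Relative to its arm the loess ratio was 0.19. SER1 is therefore reported without a settled direction.

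SER2 (YGR208W), the phosphoserine phosphatase of the last step, was lower in D10 Small. Its ratios were -0.78, -0.83, -0.73 and -0.82, a mean of -0.79 ± 0.04 (SD, n = 4) with a limma adjusted p of 2.10e-07. SER2 lies on VII right, where the other 271 tested genes had a median ratio of -0.48, and the median of its 20 nearest tested genes was -0.53. Its direct neighbours CIR1 and TRX2 had ratios of -0.59 ± 0.07 and -1.12 ± 0.11. Relative to the arm SER2 was lower by a smaller amount, -0.31, and relative to its neighbours the ratio was -0.26, with limma adjusted p of 3.61e-05 and 0.000108. A lower ratio was thus common among the genes around SER2.

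CHA1 (YCL064C), the catabolic serine and threonine deaminase, moved the other way from SER3 and much further. Its net spot intensity was 55.3, 46.9, 48.1 and 39.2 in D10 Small, against 2622, 1638, 1202 and 1087 in the pool. The D10 Small signal lay far below the median gene of its channel, yet it exceeded the background limit, set from negative control spots at 8.21 to 12.1, on all 4 arrays. The ratios were -5.23, -5.06, -4.71 and -4.67, a mean of -4.92 ± 0.27 (SD, n = 4) with a 95% interval from -5.13 to -4.70 and a limma adjusted p of 9.70e-09. Only 1 of the 5794 genes tested had a lower ratio. The spread over arrays was the widest of the 10 genes, and the arrays with brighter pool signal gave the larger differences. The part of array brightness in this spread was not tested.

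The size of the CHA1 difference varied with the processing. The CHA1 ratio came to -5.69 when the background correction was dropped together with its offset of 50. It was -6.05 in the value table of the authors and -6.76 as the net ratio of the scanner software. These deposited ratios also differ in their unstated normalisation. The values of -5.69, -6.05 and -6.76 lie below the interval at the reported setting, from -5.13 to -4.70. Median centring in place of loess went the other way, to -4.68. The offset draws ratios toward 0 at dim signal, and CHA1 had 39.2 to 55.3 in D10 Small. The interval thus leaves out the choice of processing, and the part of the offset alone was not tested. CHA1 also lies on III left, the arm with the lowest median of all arms, -0.75 over 53 other tested genes. The 14 tested genes nearest to it had a median of -1.21 and ran from -2.06 to 0.30. The nearest tested gene on one side, VAC17, had -1.52 ± 0.16, and HMLALPHA1 of the silent mating cassette, on the other side, had 0.0074 ± 0.04. Whether the HMLALPHA1 probe also reports a copy of this gene elsewhere in the genome was not tested. CHA1 stood far below the whole of this range, with -4.16 relative to its arm and -3.70 relative to its neighbours.

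**Figure D2:**
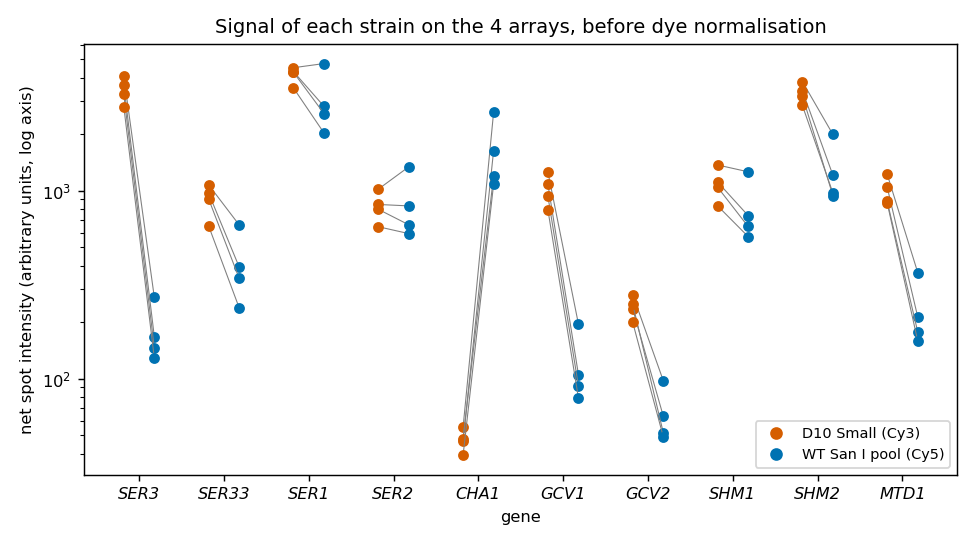
Net spot intensity (vertical log axis, arbitrary units) of each gene in D10 Small (left points) and in the WT San I pool (right points), with a line joining the 2 channels of each array, before dye normalisation. The median gene lies at 284 to 432 in D10 Small and at 105 to 246 in the pool, so higher D10 Small points alone show no difference, whereas the CHA1 points lie below the pool's, at 39.2 to 55.3 against 1087 to 2622.

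GCV1 and GCV2, the glycine cleavage genes of the set, were both higher in D10 Small, by unequal amounts. The other subunits of the complex, GCV3 and LPD1, lie outside the set and are given below, and GCV3 did not pass. GCV1 (YDR019C) encodes the T subunit, which passes the one-carbon unit to tetrahydrofolate. Its net intensity was 1259, 1082, 937 and 792 in D10 Small, against 196, 105, 91.4 and 79.0 in the pool. These signals did not overlap, but nor did those of the median gene, because the channels differ in scale. The ratios of 1.78, 1.81, 1.64 and 1.59 averaged 1.70 ± 0.11 (SD, n = 4), a 3.26-fold difference with a limma adjusted p of 3.45e-08. Its rank was 105 from the highest among all genes tested.

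GCV2 (YMR189W), the P subunit that decarboxylates glycine, had ratios of 0.45, 0.31, 0.45 and 0.28 and a mean of 0.37 ± 0.09 (SD, n = 4), with a limma adjusted p of 5.02e-05. It was the dimmest gene of the set in the pool, at 49.2 to 97.8, where the offset used in the background correction draws ratios toward 0. Median centring gave 0.57, and subtracting the median of its neighbours gave 0.18. GCV1 exceeded GCV2 by 1.33, 1.5, 1.19 and 1.30 on the 4 arrays, a mean difference of 1.33 ± 0.13 (SD, n = 4) with an exact sign-flip permutation p of 0.125.

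The 2 serine hydroxymethyltransferase genes differed in sign. SHM2 (YLR058C), for the cytosolic enzyme, gave 3813, 3409, 3198 and 2844 in D10 Small, against 1994, 1210, 943 and 972 in the pool. As for the median gene, these raw signals did not overlap, which by itself shows no difference. Its ratios of 0.90, 0.95, 1.00 and 0.88 averaged 0.93 ± 0.05 (SD, n = 4), a 1.91-fold difference with a limma adjusted p of 1.26e-07. SHM1 (YBR263W), for the mitochondrial enzyme, had ratios of -0.24, -0.26, -0.28 and -0.39 and a mean of -0.29 ± 0.07 (SD, n = 4), with a limma adjusted p of 9.74e-05. SHM1 was thus lower by a small amount, against a median of 0.22 for the other 290 tested genes of II right, and it lay at -0.51 relative to them.

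The difference between SHM2 and SHM1 was 1.14, 1.21, 1.28 and 1.27 on the 4 arrays, a mean of 1.22 ± 0.07 (SD, n = 4). Its exact sign-flip permutation p was again 0.125, with SHM2 ahead on 4 of 4 arrays. MTD1 (YKR080W), the cytosolic methylenetetrahydrofolate dehydrogenase, was higher together with SHM2. Its net intensity was 1224, 1045, 877 and 862 in D10 Small, against 367, 213, 178 and 159 in the pool. The raw channels did not overlap here either, and after dye normalisation the ratios of 1.04, 1.07, 0.91 and 1.07 averaged 1.02 ± 0.08 (SD, n = 4), with a limma adjusted p of 1.43e-07. The 95% intervals, from 0.93 to 1.11 for MTD1 and from 0.85 to 1.01 for SHM2, both include 2-fold, so the 2-fold line does not separate these genes. MTD1 fell below 2-fold, to 0.89 relative to its arm and 0.97 relative to its neighbours.

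**Figure D3:**
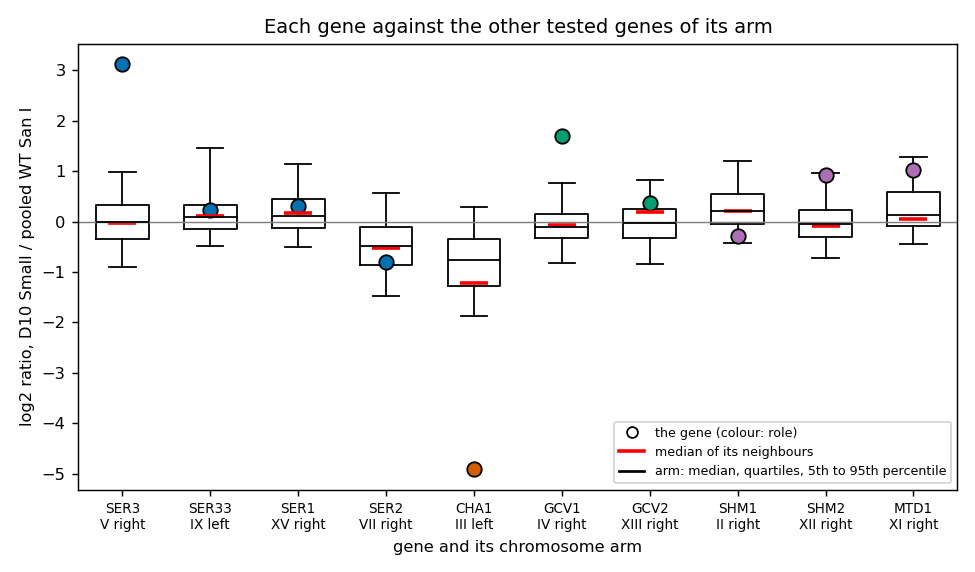
Mean log2 ratio of each of the 10 genes (large points) against the other tested genes of its chromosome arm (boxes with median and quartiles, whiskers from the 5th to the 95th percentile) and the median of its nearest tested neighbours (red bar). SER3, GCV1 and CHA1 lie outside the whiskers of their arms, while SER2, at -0.79, lies near the VII right median of -0.48.

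Each gene kept at least 5 of its 7 spots on every array after outlying spots were left out. The SD of the log2 ratio over these spots was lowest for SHM1 on 1 array, at 0.05, and highest for CHA1 on 1 array, at 0.44. Between arrays, the median SD was 0.08 for the 10 genes and 0.07 for all genes tested. Only CHA1, SER3 and GCV1 had an SD above 0.10 between arrays, and these 3 genes also had the largest ratios.

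**Figure D4:**
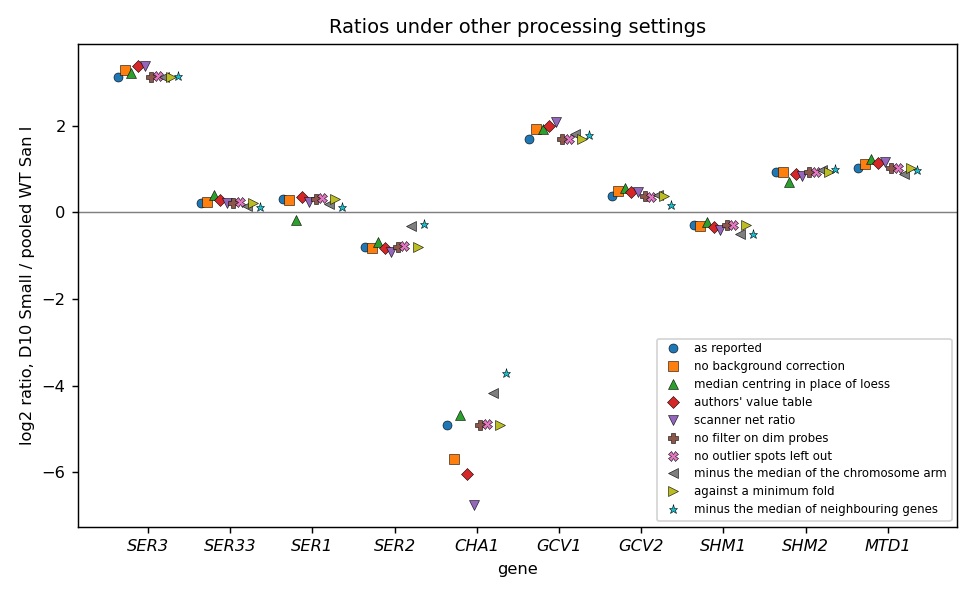
Mean log2 ratio (vertical axis) of each gene under the reported setting and 9 others (symbols). SER1 changed sign, to -0.18 with median centring, CHA1 ran from -6.76 to -3.70, and SER2 moved toward 0 when its arm or its neighbours were subtracted.

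The routes around these genes held members going both ways. Of 62 tested genes on 9 lists of the adjoining pathways, 27 were higher and 24 lower by limma, which is close to the 43.2% and 39.6% of all genes, and their median ratio was -0.0060. Genes on the list of serine use were mostly lower, with 5 lower and 1 higher of 7 and a median of -0.44. CYS4, which joins serine and homocysteine in cysteine synthesis, had -1.47 ± 0.10. CYS3 of the next step, which does not itself use serine, had -1.19 ± 0.06, and the seryl-tRNA synthetase SES1 had -1.05 ± 0.08 (SD, n = 4 each). CYS4 lies on VII right and CYS3 on I left, where the other tested genes had medians of -0.48 and -0.52, and CYS3 had -0.67 relative to its arm. With median centring SES1 had -1.60. The 1 higher gene, TRP5 of tryptophan synthesis, had 0.78 ± 0.13 and was picked out after its value was seen.

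Of 4 genes for glycine-consuming steps, 3 were higher and 0 lower, but 1 was higher against the minimum fold and 2 were lower with neighbours subtracted. GSH2, the glutathione synthetase, had 0.59 ± 0.06, but it lies on XV left, whose median was 0.45, and relative to its neighbours its ratio was -0.20. HEM1, which starts heme synthesis from glycine, had 0.29 ± 0.07, and the mitochondrial glycine carrier HEM25 had 0.28 ± 0.09, and against the minimum fold neither passed, with limma adjusted p of 0.448 and 0.592. The 4th member, the glycyl-tRNA synthetase GRS1, did not pass, with 0.07 ± 0.09. The remaining subunits of the glycine cleavage complex gave 1 higher gene of 2, a count that was 0 with median centring and 2 with the arm subtracted. LPD1, which is shared with other dehydrogenase complexes, had 0.68 ± 0.06 with loess and 0.06, past no threshold, with median centring. GCV3, the H subunit, had 0.0043 ± 0.17 and a limma adjusted p of 0.952, on I left with its median of -0.52.

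The glycine and threonine route had 5 of 8 genes higher and 2 lower, or 3 higher with median centring or against the minimum fold. HOM3, the aspartate kinase, had 0.85 ± 0.09 and AGX1, which makes glycine from glyoxylate, had 0.63 ± 0.15, or 0.96 without background correction, while THR4, the threonine synthase, had -0.98 ± 0.05 on III right, whose median was -0.31. Folate enzymes had 3 of 14 higher, 6 lower and 5 that did not pass. With median centring, or with the arm or the neighbours subtracted, 5 were higher, and against the minimum fold 2 were lower. MET13, a methylenetetrahydrofolate reductase, had 0.84 ± 0.16, or 1.45 with the net ratio, the dihydrofolate reductase DFR1 had 0.75 ± 0.15 and FOL1 of folate synthesis had -0.71 ± 0.13. The one-carbon folate synthases were chosen after their values were seen. ADE3 in the cytosol had -0.02 ± 0.02 and did not pass, on VII right with its median of -0.48, and MIS1 in mitochondria had -0.28 ± 0.07 and was lower, on II right with its median of 0.22.

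Among the 5 methyl cycle genes, 2 were higher and 3 lower, with 1 higher under median centring. The methionine synthase MET6 had 0.60 ± 0.17, against -0.67 ± 0.14 for the S-adenosylmethionine synthetase SAM2 and -0.49 ± 0.03 for SAH1, which clears S-adenosylhomocysteine. Of 9 purine synthesis genes matched on the array, 5 were higher and 3 lower, with ADE17 at 1.02 ± 0.07, ADE4 at 0.76 ± 0.07 and ADE6, on VII right, at -1.17 ± 0.07, or -0.70 relative to its arm. The count of lower purine genes was 1 against the minimum fold and with neighbours subtracted. Amino acid permeases had 3 of 5 higher and 2 lower. The second lower call, DIP5 with -0.17 ± 0.17 and a limma adjusted p of 0.0306, had 1 array at 0.08, and 1 permease was lower without replicate 1, without replicate 2, without replicate 3, with median centring or against the minimum fold. AGP1, on III left, had -1.13 ± 0.13, and -0.38 relative to its arm. The general permease GAP1 had 0.67 ± 0.12, which was 1.17 without background correction, 1.28 in the value table of the authors and 1.59 with the net ratio. The glutamine permease GNP1 had 0.49 ± 0.09, or 0.24 with median centring.

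Known regulators of these genes also went both ways, with 4 of 8 higher and 3 lower. BAS1, which with Pho2 activates purine genes and one-carbon genes such as SHM2, MTD1 and those for glycine cleavage, had 1.06 ± 0.10, whereas PHO2 had -0.75 ± 0.18. SPT6, a histone chaperone, had -1.82 ± 0.11 on VII right, and -1.07 relative to its neighbours. On the same list, SPT16 had 0.45 ± 0.07 and SNF2 had 0.30 ± 0.02, both higher, and UME6 had -0.19 ± 0.07 and was lower. SPT16, SNF2 and UME6 were named after their values were seen. The part of SPT6, SPT16, SNF2 or UME6 in the SER3 ratio was not tested. CHA4 itself, the activator of CHA1, had -0.05 ± 0.04 and did not pass, with a limma adjusted p of 0.182. It was picked out after its value was seen, as was the general amino acid control activator GCN4, with 0.68 ± 0.19. These are transcript levels and say nothing of the regulators' activity.

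**Figure D5:**
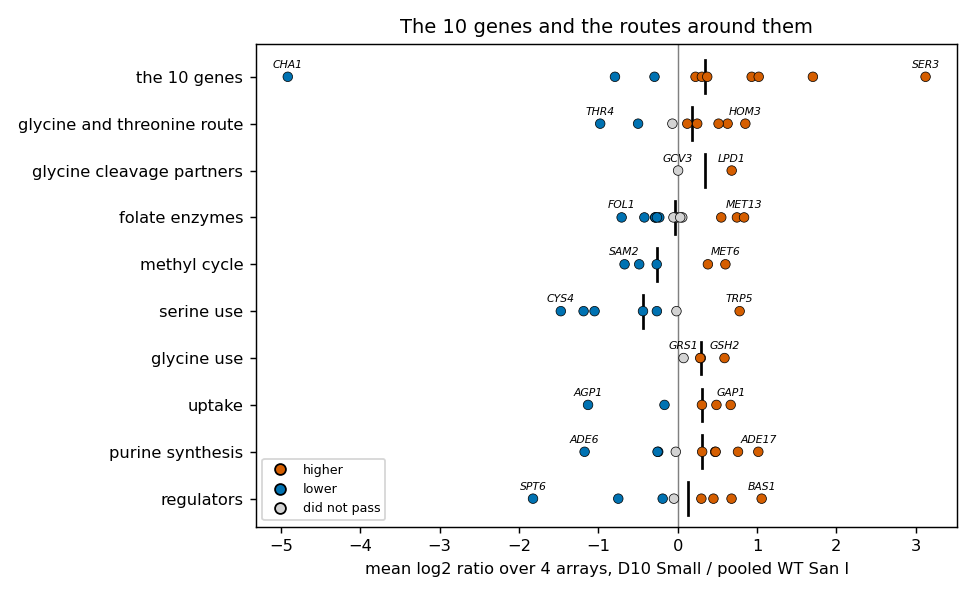
Mean log2 ratio over 4 arrays (horizontal axis) of the 10 genes and of the tested genes of 9 adjoining lists (rows), coloured by whether limma called them higher, lower or neither, with a black bar at each median and the lowest and highest gene named. At the reported setting, no gene of the adjoining lists lies beyond SPT6 at -1.82 or BAS1 at 1.06, whereas CHA1 lies at -4.92 and SER3 at 3.12.

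The genes whose 4 ratios lay closest to those of CHA1, SER3 and GCV1 were found by Euclidean distance over the 4 arrays among all genes tested. For CHA1 they were ASP3-4, ASP3-2 and ASP3-3, at distances of 0.82 to 1.02, near-identical copies whose ratios of -4.53, -4.48 and -4.42 rest on signal that was not above background in D10 Small. For SER3 they were YBL107W-A at a distance of 0.17, GPA1 at 0.38 and AMS1 at 0.39, with ratios of 3.09, 3.01 and 3.02. For GCV1 they were ECM4, PAU8 and MET17, at 0.14 to 0.17, with ratios of 1.74, 1.70 and 1.63. CHA1 thus had no gene as near to it as SER3 and GCV1 had. All 4 arrays share the pool and the dye orientation, and the distance depends mainly on the size of the ratio.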

How the data were processed

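The deposited scanner files hold, per the file headers, linear spot intensity and local background of both channels, with 45220 spots per array and 7 spots for each of 6256 genes. The authors' value table and the scanner's net ratio column are deposited log2 ratios, with a normalisation not given in the sources used here. Their direction, D10 Small over the pool, follows the dyes in the labels. Mean intensities were corrected by limma's normexp method (limma 3.58.1, R 4.3.3) with an offset of 50 and normalised by loess within arrays, with control spots at weight 0. Net intensities in the text are spot mean minus local background, averaged over kept spots. A spot was above background past the negative control mean plus 2.6 SD, and spots beyond 1.42 interquartile ranges from their probe's quartiles were dropped (6.47% to 8.77% on each array). Genes entered the test when most of their spots were above background in a channel on at least 3 arrays, which left 5794. Ratios were tested against 0 by limma's lmFit and eBayes, with Benjamini-Hochberg adjustment at 0.05. The number of arrays limits the precision, and all 4 share 1 slide, so slide could not be fitted as a batch. Symbols were matched to the R64 assembly table for 5756 genes, and arms were read from systematic names. The fit was also run on simulated data with a constant dye scale, which cannot test the choice of dye normalisation.

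The design named all 10 genes, the 3 largest called genes of each adjoining list and the 3 genes nearest to the 3 largest members. The genes and lists were chosen with earlier results of these data known. Purine gene ADE5,7 was not matched. Promoter motifs named in the design were not analysed here.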

Additional observations from a re-analysis of the deposited data

Results flagged for a closer look

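2 of the 35 genes checked had 1 array standing apart from the other 3, where chance flags about 1 gene in 20. For MTD1 it was replicate 3, with a ratio of 0.91 against 1.04 to 1.07 on the others, and the gap took 0.851 of the whole range. For SES1 it was replicate 1, with -1.17 against -1.02 to -0.99, and the gap took 0.837 of the range. Both genes passed limma without that array.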

How the results depend on the processing

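CHA1, SER3, SER2, GCV1, GCV2, SHM2 and MTD1 kept their direction and passed limma under all 13 alternatives, 1 of which, the subtraction of neighbouring genes, was chosen after seeing the data. Median centring turned SER1 to -0.18. Against a minimum fold of 1.2, SER33 (0.22), SER1 (0.30) and SHM1 (-0.29) no longer passed, with limma adjusted p of 1, 0.332 and 0.409, and the calls fell to 1425 higher and 1151 lower over all genes and to 14 lower on the adjoining lists, since this test asks for more than any difference. SER3 minus SER33 was 3.07 with no background correction, 3.09 in the value table of the authors, 3.16 with the scanner's net ratio and 3.03 with neighbours subtracted. SHM2 minus SHM1 was 0.92 with median centring, 1.49 with the arm and 1.51 with neighbours subtracted. GCV1 minus GCV2, a pair added with its values known, was 1.52 in the authors' value table, 1.61 with the net ratio and 1.60 with neighbours subtracted. Median centring gave 0.39 for SER33, against 0.14 with the arm and 0.12 with neighbours subtracted, and neighbours subtracted gave -0.20 for GSH2. Other moves by over 1.5 times included SAH1 to -0.84 and HEM1 to 0.15 with median centring, and THR4 to -0.60, PHO2 to -0.48, AGX1 to 0.38, HEM1 to 0.45 and HEM25 to 0.47 with neighbours subtracted. Counts within single lists moved by over 1.5 times in 22 cases and by less in 212. Leaving out 1 array at a time changed no call among the 10 genes, with CHA1 between -5.00 and -4.81 and SER3 between 3.09 and 3.16. D10 Small replicates could not be paired with separate WT San I replicates, because the pool is 1 sample with no replicate numbers.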
